A study of Mus musculus with 4 samples.

Results

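Isolated MEIS binding peaks that lay inside protein-coding genes were described in mouse dorsal root ganglia (DRG), ganglia that hold the cell bodies of sensory neurons, at 2 ages, embryonic day 16 (E16) and adult. They were chosen by measured values, namely the positions of peaks called with MACS2. A peak was dropped when another peak of the same age lay within 10000 bp of it, edge to edge, and kept when its summit, the base of highest signal, fell between the start and the end of a protein-coding gene. This left 332 of the 794 MACS2 peaks of both ages, with 180 of 419 from E16 and 152 of 375 from adult ganglia. The gene that held a summit is called its host gene below. In all, 316 protein-coding genes were hosts.

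The 4 libraries came from C57BL/6 mice with no genetic change or treatment named in the labels. Chromatin of E16 ganglia and of adult ganglia was immunoprecipitated with an antibody that recognises MEIS1, MEIS2 and MEIS3, so the 3 proteins cannot be told apart, and 1 input library without immunoprecipitation accompanied each age. Each group was 1 library, so no difference between the ages has a replicate check and none was tested. Neither the age of the adults nor the number of animals pooled is given in the sources used here. The labels give sensory neurons as the cell type, but no sorting step is named, and DRG also hold glia, fibroblasts, vessels and immune cells. No RNA was measured, so the cell type could not be checked against its markers.

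MEIS proteins belong to the TALE class of homeodomain factors, which bind DNA together with PBX and HOX partners and often sit at enhancers far from the genes they act on. Meis2 is known for its part in the differentiation of low-threshold touch neurons of the DRG. A short DNA sequence, TGACAG, is the core that MEIS homeodomains recognise.

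Depth is not stated. If the caller added 1 to both terms of the fold, as MACS2 does by default, so that the fold is (fragments + 1) / (local background + 1), then the deposited fold and p-value of a peak together give the whole number of DNA fragments at its summit and the background that MACS2 set there. The settings are not given in the sources used here, but with this formula every member gave a whole number within 0.001 in −log10 p, and all fragment numbers and backgrounds below rest on it. The genome-wide background was 0.23 fragments per summit position for E16 and 0.0647 for adult chromatin, and their ratio was 3.55. The fold itself is the value of the authors' peak caller, and the lower adult background lets the same fragments give a higher fold. Folds were therefore used to rank or split peaks within 1 age, and the same fold is not the same class of peak at both ages. Fragment intervals are exact Poisson 95% intervals, shares have exact (Clopper-Pearson) 95% intervals, and both cover counting error only.

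Of 370 isolated E16 peaks, 180 were members, 48.6% (43.4 to 53.9), and of 340 isolated adult peaks 152 were, 44.7% (39.3 to 50.2). The rule itself used gene position, so nothing is read from these shares. For scale, 38.2% of the sequence between the first and the last gene of the chromosomes lies in protein-coding genes. Isolation cost 49 E16 and 35 adult peaks, of which 5 and 3 lay in genes. The closest neighbour of a kept genic peak was 16029 bp away among E16 peaks and 32586 bp among adult peaks, and the farthest neighbour of a dropped genic peak was 7846 and 6215 bp away. No member was near the distance limit.

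The gene limit was tighter. At E16 the summit closest to a gene boundary from inside was in Batf2, a basic leucine zipper gene, 476 bp from the boundary with a fold of 6.51. In the adult, the summit in Fan1, a nuclease gene of DNA crosslink repair, was 57 bp inside with a fold of 12.0, and a summit 167 bp outside Ndst4, a heparan sulfate enzyme gene, had a fold of 5.64.

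One member overlapped a RefSeq start window, which runs from 250 bases before to 50 bases after an annotated transcription start. The E16 peak in Mmp23, which encodes a membrane-anchored metalloproteinase, lay at chr4:155653229-155653403. Its summit was 117 bp and 23 bp inside the transcripts of the 2 Mmp23 starts in the RefSeq start table. Both starts are internal to the gene body used here, whose 5′ end was 1272 bp from the summit. The peak held 5 fragments (1.62 to 11.7) and had a fold of 4.55, so it was a weak peak in one of the shortest host genes (3.89 kb). The 250 bases before the farther start held 1 TGACAG, shown 5′ to 3′ in capitals with its flanks (chr4:155653432-155653461, GRCm38.p6, minus strand, RefSeq).

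Mmp23 match: cgcctcgcgttcTGACAGaccccccgacac

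This stretch also lies inside the gene body, and whether it is exonic was not analysed here. Only the last 19 of the 250 bases lie under the peak, and the match, 65 to 60 bases before the start, is not among them. TGACAG on either strand is present in 15.9% of all 32851 RefSeq windows of 250 bases before a start, so 1 match is a description and not a site.

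Host genes were long when genes are counted and of ordinary length when bases are counted. The median host length was 111 kb (95% order-statistic interval 90.5 to 146) at E16 and 114 kb (91.0 to 157) in the adult. A protein-coding gene has a median of 17.2 kb, but the gene holding a median base of genic sequence has 138 kb, because long genes hold more bases. Genes of 100 kb or more held 98 of 180 E16 members, 54.4% (46.9 to 61.9), and 79 of 152 adult members, 52.0% (43.7 to 60.1). Such genes are 11.1% of genes and 59.2% of genic bases. Both intervals include the share of bases and lie far above the share of genes.

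**Figure D1:**
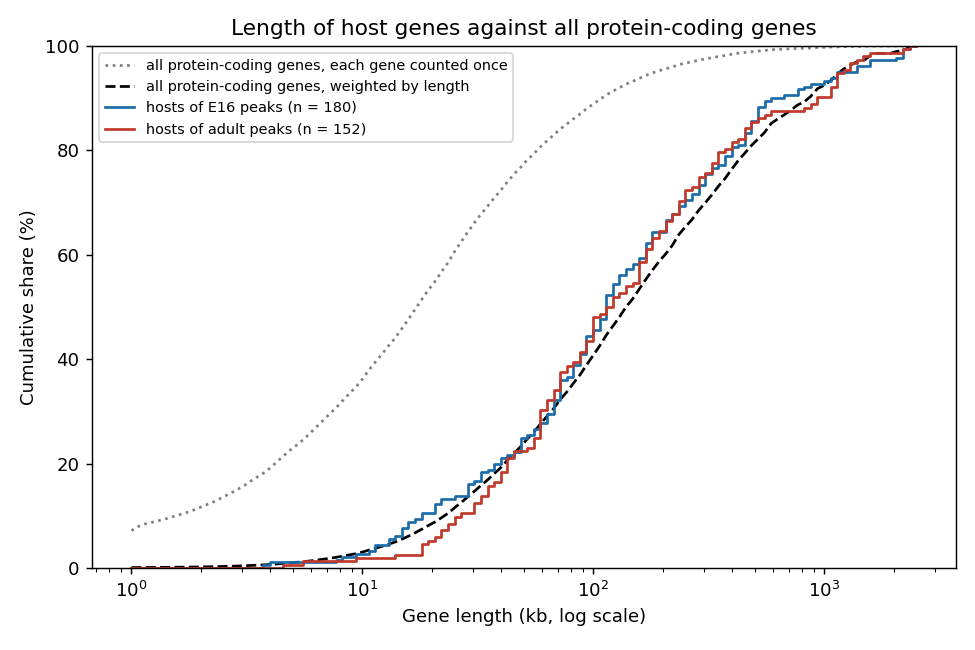
Cumulative share (%) of host genes by gene length (kb, log scale) for 180 E16 and 152 adult peaks, with all protein-coding genes counted once each (dotted) or weighted by length (dashed). Both host curves run close to the length-weighted curve and far to the right of the dotted one, with medians of 111 and 114 kb against 138 and 17.2 kb.

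The classes of length gave the same picture. Genes under 10 kb held 2.78% of E16 members (0.908 to 6.36) and 1.97% of adult members (0.409 to 5.66), against 36.2% of genes and 3.10% of genic bases. Genes of 50 to 100 kb held 20% (14.4 to 26.6) and 25.7% (18.9 to 33.4), against 16.9% of bases. The adult interval for this class lay above the share of bases, and the E16 interval included it. Genes of 500 kb or more held 12.2% (7.82 to 17.9) and 13.8% (8.76 to 20.3), against 18.4% of bases. The E16 interval for the longest class lay below that share and the adult one included it, and neither difference was tested.

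At E16 the longest hosts were Cntnap2 (2241 kb), a neurexin-family adhesion gene that organises potassium channels along myelinated axons, Lrp1b (2058 kb), an LDL receptor family gene, Macrod2 (1998 kb), Rbfox1 (1528 kb), a neuronal splicing regulator, and Dpp10 (1514 kb), an auxiliary subunit of Kv4 potassium channels. The Cntnap2 peak had 6 fragments (2.2 to 13.1) and a fold of 5.69, and those of Macrod2 and Rbfox1 had 7 each and folds of 6.51 and 6.29. In the adult the longest were Lsamp (2197 kb), which encodes a GPI-anchored adhesion molecule of the limbic system, Lrp1b and Dpp10 again, Gpc5 (1433 kb), a glypican, and Il1rapl1 (1375 kb), a synapse-forming receptor. The Lsamp peak had 15 fragments (8.40 to 24.7) and a fold of 14.9, and that in Il1rapl1 4 fragments (1.09 to 10.2) and a fold of 4.70. Genes of 1000 kb or more, 59 in the genome, held 12 E16 members (6.67%, 3.49 to 11.4) and 15 adult members (9.87%, 5.63 to 15.8), and they hold 7.56% of genic bases.

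Short hosts were few. Slc39a2 (3.66 kb), a zinc transporter gene, held an E16 peak of 7 fragments (2.81 to 14.4) and fold 6.51. Fth1 (4.51 kb), the ferritin heavy chain, held an adult peak of 7 fragments and fold 6.60. Izumo1 (5.43 kb), a sperm protein needed for fusion with the egg, held a stronger adult peak of 16 fragments (9.15 to 26.0) and fold 14.9. Ctsl (8.88 kb), the lysosomal protease cathepsin L, held 6 fragments and fold 5.78.

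Summits were spread evenly along their host genes at both ages. Gene strand was known for 146 E16 and 126 adult members. Along these genes from the 5′ to the 3′ end, the median summit was at 51.3% of the length (41.4 to 58.8) for E16 peaks and at 50.7% (41.0 to 58.4) for adult peaks. Cut into 5 equal parts, the genes held 32, 26, 29, 28 and 31 E16 members and 26, 24, 27, 24 and 25 adult members. No part stood out beyond its counting interval, and 72 of 146 and 63 of 126 summits lay on the 5′ side of the midpoint. Over all members, 80% (73.4 to 85.6) at E16 and 82.2% (75.2 to 88.0) in the adult were in the middle 80% of the gene.

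**Figure D2:**
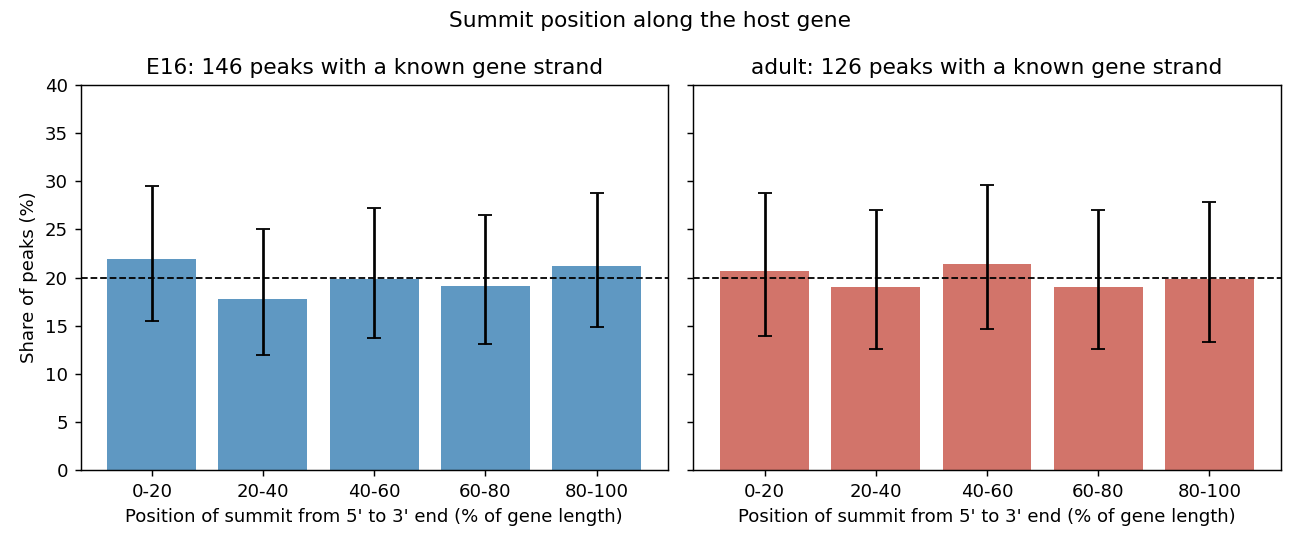
Share of peaks (%) in each of 5 equal parts of the host gene from the 5′ to the 3′ end, for 146 E16 and 126 adult peaks with a known gene strand. Bars are shares, error bars exact 95% binomial intervals, and the dashed line an even spread of 20%. Every interval crosses the line.

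Near gene ends, the shares of members did not stand apart from the share of genic bases. Within 1000 bp of either boundary there were 8 E16 members, 4.44% (1.94 to 8.57), and 4 adult members, 2.63% (0.722 to 6.60), and 3.94% of genic bases lie that close. Within 5000 bp of a boundary the shares were 22.2% (16.4 to 29.0) and 16.4% (10.9 to 23.3), against 16.4% of genic bases. Each of these intervals includes the share of bases, the E16 one at 5000 bp only at its lower limit. Within 1000 bp of an annotated start of the host there were 8 of 146 and 2 of 126. The share of genic bases that close to a start was not computed, so nothing is read from these counts. The median distance from a summit to the nearest start of its host was 34.8 kb (24.3 to 51.1) at E16 and 32.8 kb (24.6 to 49.7) in the adult, and ranged from 0.023 to 964 kb and from 0.66 to 1077 kb.

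Besides that in Mmp23, E16 summits lay 908 bp from a start of Gfi1b, a zinc finger repressor of red cell and platelet development, 656 bp from one of Trp73, the p53-family gene for p73, and 479 bp from one of Ptk7, a pseudokinase of planar cell polarity. Rhoj, a small GTPase known from endothelium, had one 504 bp from a start, Heatr5a 511 bp, Cibar2 501 bp and Tmem14a 706 bp. The folds of these 7 ran from 4.40 in Rhoj to 6.51 in Gfi1b, Cibar2 and Tmem14a, and their fragments from 5 to 7. None was among the 15 E16 members of highest fold. The Tmem14a start is internal to the gene body, and the summit there lay 51.4 kb from the 5′ end, at 80.7% of the gene. The 8 within 1000 bp of a boundary were those of Batf2, Gfi1b, Cibar2, Trp73, Heatr5a and Rhoj, with Tmem259 (956 bp) and Sema6b, a transmembrane semaphorin, 651 bp from its 3′ end with 4 fragments (1.09 to 10.2).

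In the adult, the 2 members close to a start were in Crxos (673 bp, fold 6.54) and in Tfap2d (660 bp, fold 4.38), which encodes an AP-2 family transcription factor. The boundary members were Fan1, at 99.8% of its length from the 5′ end with 12 fragments (6.20 to 21.0), Fth1 (878 bp), Rock1 (253 bp), which encodes a kinase of actomyosin contraction, and Lars2 (686 bp), a mitochondrial leucyl-tRNA synthetase. The Lars2 peak had 27 fragments (17.8 to 39.3) on a local background 77.3 times the genome-wide value, and its fold was 4.66.

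Most members were small peaks. At E16 the fragments at the summit ran from 4 to 83 with a median of 6, and 169 of 180 members (93.9%, 89.3 to 96.9) had 10 or fewer. In the adult they ran from 3, in Stk39, to 56, with a median of 6, and 125 of 152 (82.2%, 75.2 to 88.0) had 10 or fewer. A summit with 5 fragments has an interval of 1.62 to 11.7, so the order of most members within an age is not resolved. The least width a peak could have in its list, 175 bp for E16 peaks and 163 bp for adult peaks, was the width of 126 and 80 members.

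The folds of E16 members ran from 2.96 to 11.4 with a median of 5.69 and quartiles of 4.88 and 6.51. Those of adult members ran from 3.73 to 36.3 with a median of 5.64 and quartiles of 5.26 and 7.40. A fold of 10 or more was reached by 2 E16 members, 1.11% (0.135 to 3.96), and by 24 adult members, 15.8% (10.4 to 22.6). The adult genome-wide background was lower and each age had 1 library, so these 2 shares are not comparable between the ages. More than 10 fragments were present at 11 E16 and 27 adult members. How far the background accounts for the difference was not tested. Isolated peaks outside protein-coding genes had medians of 5.69 and 6.13, with 7 of 190 (3.68%) and 35 of 188 (18.6%) at a fold of 10 or more. At each age the interval of the members' share included the share outside genes.

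**Figure D3:**
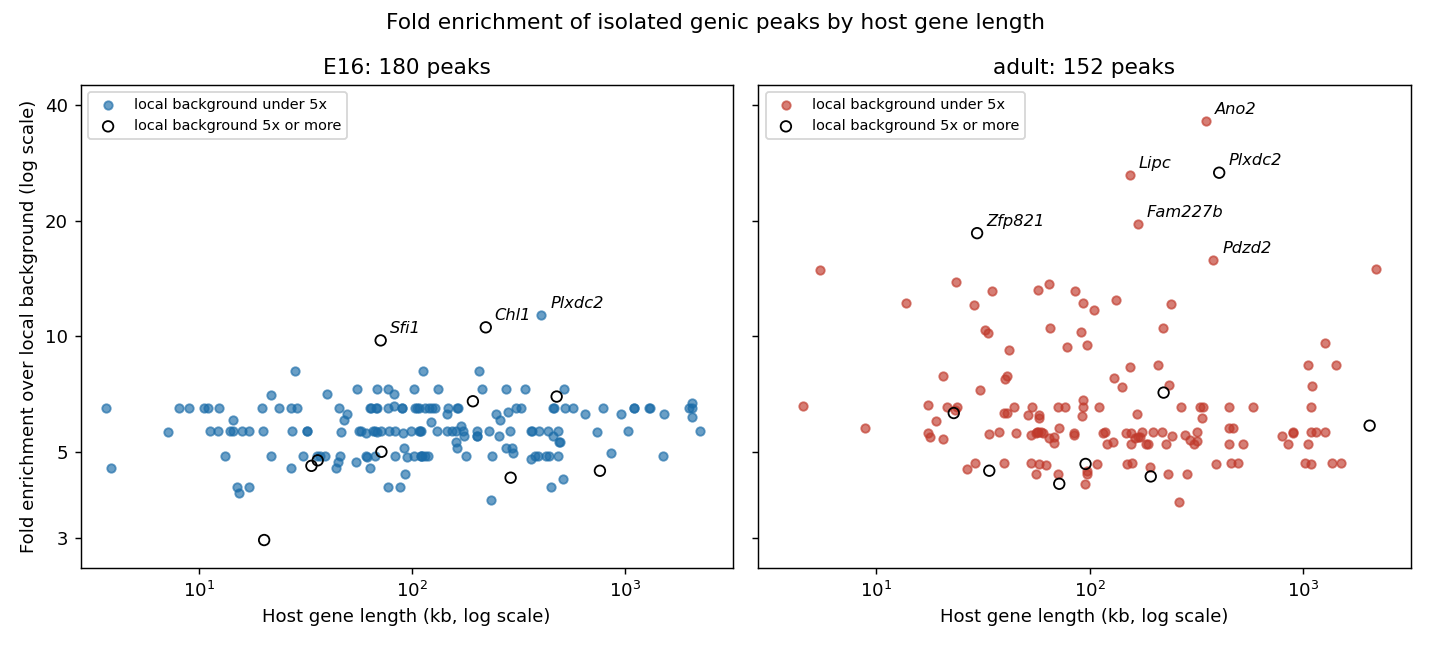
Fold enrichment over the local background (log scale) against host gene length (kb, log scale) for each of 180 E16 and 152 adult peaks. Open circles mark 10 E16 and 9 adult peaks on a local background of at least 5 times the genome-wide level. Rows of equal fold come from small whole numbers of fragments, and the high adult folds span hosts from Izumo1 (5.43 kb) to Lsamp (2197 kb).

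The strongest adult member was in Ano2, a calcium-activated chloride channel of sensory cells. Its peak at chr6:125876810-125877287 had 43 fragments (31.1 to 57.9), a fold of 36.3 and a local background 3.27 times the genome-wide value, and its summit lay at 53.4% of a gene of 350 kb. Another adult member lay 259 kb away in Vwf, which encodes von Willebrand factor of vessel walls and platelets, with 13 fragments (6.92 to 22.2) and a fold of 12.4. Neither gene had a member at E16. Only 7.38% of adult host genes had one, so nothing is read from this.

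Plxdc2, described below with the sites present at both ages, came next at a fold of 26.6 with 35 fragments (24.4 to 48.7). Lipc, hepatic lipase, had 29 fragments (19.4 to 41.6) and a fold of 26.3 at chr9:70806066-70806352, 94.8% along the gene and 8082 bp from its 3′ end. The peak of Fam227b was at the opposite end of its gene, 2.51% from the 5′ end, with 20 fragments (12.2 to 30.9) and a fold of 19.6. Zfp821, a zinc finger gene, had 28 fragments (18.6 to 40.5) and a fold of 18.5 on a background 8.71 times the genome-wide value. Its summit was 1395 bp from a start of the gene and 98.8 kb from the adult member in Ap1g1, a clathrin adaptor subunit, which had 13 fragments and a fold of 13.1.

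The other adult members among the 15 of highest fold were of mixed function. Pdzd2, a PDZ-domain scaffold, had a fold of 15.8 with 17 fragments (9.90 to 27.2). Ybx3, a cold-shock protein that binds nucleic acids, had 13.9 with 14 fragments. Clip2, which links microtubules to membranes, had 13.7 with 16 fragments. Npffr2, a receptor for neuropeptide FF, a peptide that modulates pain, had 13.2 with 15 fragments (8.40 to 24.7), 16.4% along the gene. Ces1g, a carboxylesterase, had 13.1 and Dnmbp, which activates Cdc42, had 12.2, with 13 and 12 fragments. Their intervals overlap, so no order among these 6 is resolved.

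Host length was also set beside fold within each age. The 69 adult members with a fold of 6 or more had a median host length of 91.0 kb (57.1 to 134), and 42.0% of them (30.2 to 54.5) were in genes of 100 kb or more. The 83 below that fold had a median of 157 kb (96.9 to 194), and 60.2% (48.9 to 70.8) were in such genes. The intervals of both measures overlap. At E16 the order was the other way, 59.5% (47.4 to 70.7) at a fold of 6 or more and 50.9% (41.0 to 60.8) below it. The least fragments at a fold of 6 or more were 7 at E16 and 6 in the adult, so the classes differ between the ages. A fold of 10 or more was reached by 8 of 34 adult members in hosts under 50 kb, 23.5% (10.7 to 41.2). In hosts of 50 to 100 kb it was 6 of 39, 15.4% (5.86 to 30.5). In hosts of 500 kb or more it was 1 of 21, 4.76% (0.120 to 23.8), and that 1 was in Lsamp. These intervals overlap, and no trend with host length was tested.

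The strongest E16 member was in Plxdc2, which encodes a transmembrane protein with a plexin-like domain, with 14 fragments (7.65 to 23.5) and a fold of 11.4. Chl1, a close homologue of the L1 adhesion molecule that guides neurite growth, had the most fragments, 83 (66.1 to 103), a fold of 10.6 and a background 30.3 times the genome-wide value. Sfi1, a centrosomal protein gene, had 56 fragments (42.3 to 72.7), a fold of 9.77 and a background 21.1 times the genome-wide value. These 3 were the only E16 members with a fold above 9.

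Below them came a group whose folds were set by 8 or 9 fragments on a background at or within 1% of the genome-wide value. Gabbr1, a subunit of the GABA-B receptor, Grk5, a kinase that desensitises G protein-coupled receptors, and Jak1, a kinase of cytokine receptors, had 9 fragments each (4.12 to 17.1) and a fold of 8.13. With 8 fragments (3.45 to 15.8) and a fold of 7.32 there were Dlgap3, a postsynaptic scaffold, Stxbp5l, a tomosyn that restrains vesicle release, Elmo1, which activates Rac, Vps53, a tether for endosomes, Nfx1, Cplane1, a ciliogenesis gene, and Cspg4b. Epb41l3, a membrane skeleton protein of axons and myelin, and Rere, a nuclear receptor corepressor, had 8 fragments and a fold of 7.31. Their positions ran from 3.81% along the gene in Cspg4b to 95.1% in Gabbr1.

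Only a few sites had a peak at both ages. A MACS2 peak of the other age was overlapped, by at least 1 bp, by 6 of 180 (3.33%, 1.23 to 7.11) E16 members and 6 of 152 (3.95%, 1.46 to 8.39) adult members, against 5.68% and 6.47% of all isolated peaks of the 2 lists. Outside protein-coding genes it was 15 of 190 (7.89%, 4.49 to 12.7) and 16 of 188 (8.51%, 4.94 to 13.5), and the intervals of members and other peaks overlap. The 6 host genes were Plxdc2, Chl1, Lrp1b, Cdk5rap2, Cdk8 and Litaf, and the summits of a pair were 0 to 20 bp apart. Because each age was called separately, a site with a peak at 1 age can lie just below the threshold at the other. The MACS 1.4 lists of the same libraries overlapped 172 of 180 E16 members (95.6%) and 147 of 152 adult members (96.7%), against 95.4% and 97.9% of isolated peaks. The E16 member in Sfi1, with a fold of 9.77, was not among the 172. The adult MACS 1.4 list held 8 E16 members, adding 2210408I21Rik and Mdga2, an adhesion gene that blocks neuroligin binding.

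The site in Plxdc2 (chr2:16682963-16683261 at E16) was the strongest of these relative to its surroundings. It had 14 fragments (7.65 to 23.5) at E16 and 35 (24.4 to 48.7) in the adult, with folds of 11.4 and 26.6 and local backgrounds 1.39 and 5.45 times the genome-wide value of their library. The adult fragments were higher although the adult genome-wide background was lower. Summits were 9 bp apart, in a gene of 405 kb.

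The sites in Chl1, Cdk5rap2, Cdk8 and Litaf all stood on raised backgrounds. In Chl1 the fragments were 83 (66.1 to 103) and 56 (42.3 to 72.7) and the folds 10.6 and 7.15, at 62.3% along the gene. In Cdk5rap2, a centrosome gene, they were 57 (43.2 to 73.9) and 32 (21.9 to 45.2), with folds of 6.79 and 4.33, at 16.7%. In Cdk8, the kinase of the Mediator complex, they were 25 (16.2 to 36.9) and 30 (20.2 to 42.8), with folds of 5.02 and 4.14, at 42.0%. Litaf, a membrane protein of late endosomes in which mutations cause a demyelinating neuropathy, had 25 (16.2 to 36.9) and 18 (10.7 to 28.4), with folds of 4.61 and 4.48, at 53.2%. At these 4 sites the E16 local background was 18.2 to 32.9 times its genome-wide value and the adult one 50.1 to 108 times. Lrp1b had 8 fragments (3.45 to 15.8) and 9 (4.12 to 17.1), folds of 6.19 and 5.87, and backgrounds of 1.98 and 10.9 times.

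**Figure D4:**
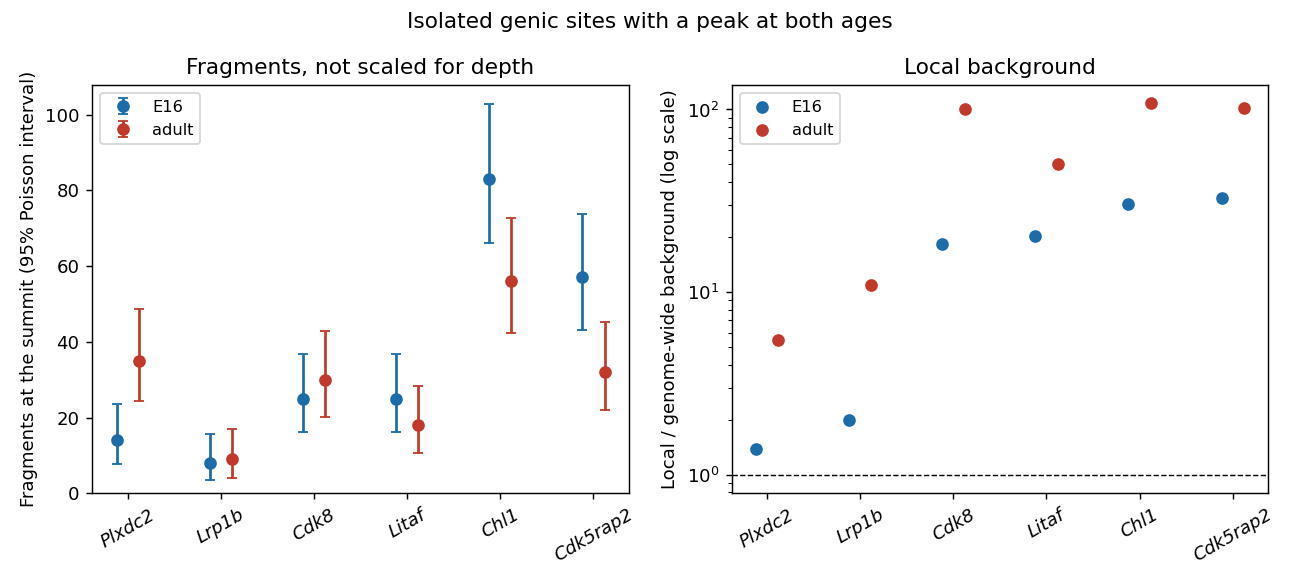
Left, fragments at the summit with exact 95% Poisson intervals, not scaled for depth, and right, local background as a multiple of the genome-wide value (log scale), for the 6 host genes with an overlapping peak at E16 and in the adult. As a multiple of the genome-wide value of its own library, the background was higher in the adult at all 6 sites. That value was 0.23 fragments at E16 and 0.0647 in the adult, so the multiples do not compare backgrounds in fragments. Only in Plxdc2 were the adult fragments above the E16 interval.

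A local background of 5 times the genome-wide value or more was present at 10 of 180 E16 members and 9 of 152 adult members. All 6 adult members with an E16 counterpart were among these 9, and 4 of the 6 E16 members with an adult counterpart were among these 10. The other such E16 hosts were Sfi1, 2210408I21Rik, E030030I06Rik, Mdga2, Kctd16, an auxiliary subunit of GABA-B receptors, and Cldn34d, and the other adult ones Zfp821, Zfp949 and Lars2. Without all peaks on such a background, 0 members of either age overlapped a peak of the other age, and with the MACS 1.4 lists in place of MACS2 it was 14 of 576 and 14 of 341. At Cldn34d, 29 fragments (19.4 to 41.6) on a background of 39.8 times gave the lowest fold of any E16 member, 2.96. The part of the raised background in the overlap between ages was not tested.

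Of the 178 E16 and 149 adult host genes, 11 held members at both ages, 6.18% (3.12 to 10.8) and 7.38% (3.74 to 12.8). An E16 member was held by 0.813% of all 21887 protein-coding genes and an adult member by 0.681%, shares that the rule itself sets. Besides the 6 genes above, the 5 others had their summits far apart. In Auts2, a neurodevelopmental gene of 1106 kb, they were 983 kb apart, with 7 fragments (2.81 to 14.4) at each age. In Dpp10 they were 341 kb apart, with 5 and 4 fragments. Efcab3 had them 58.6 kb apart, Myo7a, the myosin of sensory hair bundles, 39.3 kb, and Rin2, a Rab5 exchange factor, 19.5 kb. In Myo7a the E16 summit was at 29.5% and the adult one at 87.0% of the gene, with 7 and 5 fragments.

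**Figure D5:**
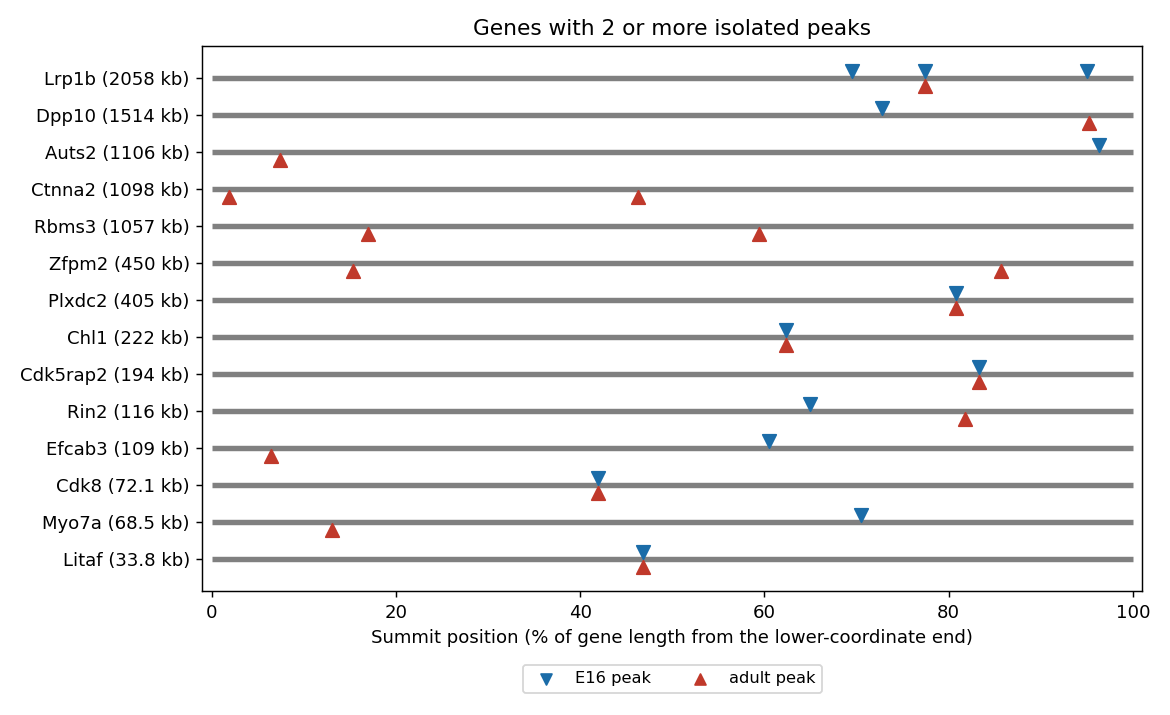
Summit positions (% of gene length from the lower-coordinate end) in the 14 genes with 2 or more isolated peaks over both ages, longest gene at the top. Downward triangles are E16 peaks and upward triangles adult peaks. They coincide in Lrp1b, Plxdc2, Chl1, Cdk5rap2, Cdk8 and Litaf and lie apart in the other genes.

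There were 4 genes with several members of 1 age. Lrp1b held 3 E16 members with 8, 8 and 7 fragments over 525 kb, and its adult member coincided with the middle one. In the adult, Ctnna2, the neuronal alpha-catenin that ties cadherins to actin, held 2 members 487 kb apart with 6 and 4 fragments. Rbms3, an RNA-binding protein gene, held 2 that were 449 kb apart with 8 and 5 fragments. Zfpm2, the GATA cofactor FOG2, held 2 that were 317 kb apart with 6 and 5. The shortest of the 4 genes, Zfpm2, was 450 kb long.

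Genes for adhesion and synapse organisation held the most members of 36 gene lists and families. They are also long and cover the most genic bases of the 36. The lists were chosen with earlier results of these data known, so nothing is read from this rank. The adhesion list of 84 genes covers 4.61% of genic bases with a median length of 334 kb. It held 10 E16 members in 8 genes, 5.56% (2.70 to 9.98), with a median fold of 6.40. Adult members were 9 in 8 genes, 5.92% (2.74 to 10.9), with a median fold of 5.87. The intervals include the share of bases, and the median folds of all members were 5.69 and 5.64. At E16 the genes were Chl1, Lrp1b, Lrrtm4 and Lrrc4c, leucine-rich repeat synaptic proteins with 7 fragments and a fold of 6.51 each, Cntnap5c, Cntnap2, Tenm4, a teneurin, and Nrcam, an L1-family protein of nodes of Ranvier. In the adult they were Lsamp, Cntn5, a contactin with 10 fragments and a fold of 9.64, Chl1, Ctnna2, Lrp1b, Cntnap5a, Ptprk and Il1rapl1. Chl1 and Lrp1b were in both sets.

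Axon guidance genes, 78 genes with 1.42% of genic bases, held 6 E16 members, 3.33% (1.23 to 7.11), and 3 adult members, 1.97% (0.409 to 5.66). At E16 the receptors were Plxnb3, a plexin, with 6 fragments and a fold of 5.69, Neo1 with 6 and 5.31, Unc5a, a netrin receptor, with 5 and 4.88, and Epha5 with 6 and 4.81. The ligands were Efnb2, an ephrin, with 5 fragments and a fold of 4.55, and Sema6b with 4 and 4.07. In the adult, Plxnc1, the receptor of semaphorin 7A, had 8 fragments (3.45 to 15.8) and a fold of 8.35, Dcc, the netrin receptor, 5 and 5.64, and Robo1, the Slit receptor, 4 and 4.70. No gene of the list had a member at both ages. Of all host genes, only 6.18% at E16 and 7.38% in the adult did, so with 6 and 3 members nothing is read from this. The median fold of the 6 E16 members, 4.85, was below the 5.69 of all E16 members.

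Transcription factors of sensory neurons, 62 genes with 0.674% of genic bases, held 1 E16 and 3 adult members. The E16 peak was in Etv1, which proprioceptors need to reach their spinal targets, with 7 fragments (2.81 to 14.4) and a fold of 6.51, 38.9% along the gene. In the adult, Bcl11a, a zinc finger repressor of dorsal spinal and sensory circuits, had 10 fragments and a fold of 9.48, Ebf3 had 5 and 5.33, and Ebf1 had 4 and 4.67. Among Sox, Fox and Pou genes, Sox6 and Sox5 held E16 members with 7 fragments each and Pou2f2 an adult one with 7. No Hox gene held a member, and these 39 genes cover only 0.0286% of genic bases.

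Families of channels and receptors each held at most 2 members of an age. Sodium channel genes (0.120% of genic bases) held 1 E16 member, in Scn8a, 0.556% (0.0141 to 3.06). Calcium channel genes (0.470%) held 2, in Cacna1e and Cacna1i, potassium channel genes (1.02%) 2, in Kcnip1 and Kcnj4, ionotropic glutamate receptor genes (0.601%) 2, in Grin2b and Grik4, and GABA and glycine receptor genes (0.346%) 2, in Gabbr1 and Gabrb1. A count of 2 is 1.11% of E16 members (0.135 to 3.96), and these intervals include each family's share of bases. Each but Gabbr1 had 5 or 6 fragments and a fold of 4.88 to 5.69. In the adult, these families held 1 member, in Kcnq1, with 5 fragments. Synaptic vesicle and scaffold genes, 61 genes with 1.68% of genic bases, held 3 E16 members, in Dlgap3, Rims2 and Cadps, and 0 adult members, which allows up to 2.40%. Among 50 genes of sensory transduction and itch (0.516% of genic bases), with 2 E16 members and 1 adult member, Trpm3, a heat-gated channel, had 6 fragments and Trpc1 had 5 at E16, and Ano2 had its 43 in the adult.

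Cytoskeleton and axonal transport genes, 74 genes with 1.4% of genic bases, held 0 E16 members and 3 adult members, in Macf1, a microtubule-actin crosslinker with 6 fragments, Sptbn1, a spectrin, and Rock1 with 5 each. Of 34 genes of neurotrophic signalling (0.570% of genic bases), Nrg3 held 1 E16 member with 7 fragments. Of 35 Schwann cell and satellite glia genes (0.222%), Mbp, myelin basic protein, held 1 E16 member with 6 fragments and a fold of 5.69. None of 40 marker genes of fibroblasts, vessels, immune cells, muscle and blood held a member, and these cover 0.156% of genic bases. The list does not hold Vwf, Gfi1b or Rhoj, the host genes named above for vessels or blood. Of the 95 developmental signalling genes, 94 of them found in the gene table (0.775%), Smad9, a BMP mediator, held 1 E16 member with 5 fragments.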

How the data were processed

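ChIP-seq was made from E16 and adult DRG, 1 immunoprecipitated and 1 input library per age. Each input was matched to its age by the library name in the labels. Per the submitters' processing notes, bcl2fastq 2.17, FastQC, MACS2 2.1.1, MACS 1.4.2 and mm10 were used. The aligner, the handling of duplicates and repeats, and caller settings are not given in the sources used here; these can change fragments and folds. Deposited by the authors, the MACS2 lists hold fold (a ratio), −log10 p and −log10 q values. The deposited MACS 1.4 lists give a score per peak, which was not used.

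Fragments were recovered from fold and −log10 p, with an assumed pseudocount of 1, as whole numbers within a tolerance of 0.001, with 1 solution for each of 332 members. The arithmetic of the recovery was checked on data simulated with the same formula, which cannot check the assumed pseudocount. Genes came from RefSeq GRCm38.p6 (mm10 coordinates; 21887 protein-coding). Strand and starts came from a RefSeq start table holding 17492 of them. No exon table or genome sequence was used here, so exon, intron and untranslated region were not analysed. Intervals for medians are 95% order-statistic intervals. With 1 library per group there is no test and no p-value.

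Named genes were, per age, the 15 of highest fold, hosts of 2 or more members, sites shared between ages, summits within 1000 bp of a boundary or start, the 5 longest and 5 shortest hosts, up to 8 per gene list, and the 3 with the most and fewest fragments. There were 10 written lists and 26 name families. Other genes on a raised local background, in neighbouring pairs, on chromosome 3 or with a second gene were named after their values were seen. Some results that the rule would name are not reported here. Members, lists and rules were chosen with earlier results of these data known. Alternatives were the isolation distance, peak thresholds, the MACS 1.4 lists, gene-body, gene-choice, boundary and overlap rules, and, added after seeing the data, leaving out peaks with a local background of 5 times or more. Python 3.11.15, numpy 2.4.6, pandas 2.3.3, scipy 1.17.1 and matplotlib 3.10.9 were used.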

Additional observations from a re-analysis of the deposited data

How the results depend on the processing

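Of 128 alternative values for 17 results, 104 stayed within the limits set for them. The limits for counts were wide: 129 E16 members with −log10 q of at least 3, against 180, counted as within them. No member's summit lay in more than 1 protein-coding gene, so taking the shortest gene over the summit could not change any value. The values of that setting are among the 104, so this total overstates how stable the results were. No replicate could be left out, with 1 library per group. No paired analysis was possible because each group had 1 library and no result came from a test. With the MACS 1.4 lists there were 576 E16 and 341 adult members (180 and 152 with MACS2), 32 and 11 within 1000 bp of a boundary (8 and 4), 14 and 14 shared between ages (6 and 6), and 42 host genes at both ages (11). Among peaks of fold 6 or more, members were 74 and 69, boundary members 3 and 2, shared members 2 and 2, both-age hosts 3, and the adult share in genes of 100 kb or more 42.0% (52.0%). With −log10 q of at least 3, the E16 median fold was 6.29 (5.69) and E16 boundary members 5. A boundary distance of 5000 bp gave 40 and 25. With all annotated genes, 56.5% and 55% of isolated peaks were inside a gene (48.6% and 44.7%). Without peaks on a local background of 5 times or more, shared members were 0 and 0 and both-age hosts 5, since 1 or both peaks of each shared site were dropped. The other causes were not tested. Fragment numbers of 3 to 10 at most members limit every ranking.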

Other observations

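Members were scarce on chromosome 3 at both ages. It holds 5.02% of protein-coding gene bases but held 1 of 180 E16 members, 0.556% (0.0141 to 3.06), in Smad9, and 2 of 152 adult members, 1.32% (0.160 to 4.67), in Ubap2l, a stress-granule RNA-binding protein gene, and Bcl9, a Wnt coactivator gene. Isolated peaks as such were present there, 15 at E16 and 14 in the adult, so 6.67% (0.169 to 31.9) and 14.3% (1.78 to 42.8) of them were in protein-coding genes, against 48.6% and 44.7% over all chromosomes. The MACS 1.4 lists placed 15 of 576 (2.60%) and 12 of 341 (3.52%) isolated genic peaks on it. Chromosome 3 was singled out after its values were seen, among 21 chromosomes, and was not tested. Chromosome 2 held the most E16 members, 21 (11.7%, 7.37 to 17.3, against 7.80% of gene bases), and chromosome 9 the most adult members, 15 (9.87%, 5.63 to 15.8, against 5.32%).

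Peaks of different hosts lay close together at a few places. At E16, Garnl3 and Ralgps1, both GTPase regulators, held members 73.2 kb apart with 6 and 5. Across the ages, the E16 member of Sema6b with 4 fragments lay 76.3 kb from the adult member of Dpp9, a dipeptidyl peptidase, which had 11 fragments and a fold of 10.4. Another E16 member on the X chromosome, in Rgn with 6 fragments, lay 75.8 kb from the adult member of Rbm10, a splicing regulator, with 10 fragments and a fold of 10.2.

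A few members also touched a second gene. At E16 this was so for 6 members, all with a long noncoding RNA gene, among them Rbfox1, Dpp10, Gfi1b and Ednra, the endothelin A receptor. In the adult it was so for 5, with noncoding RNA genes in Cep57l1, Mbnl2 and Tfap2d, the pseudogene Gm4707 in Smchd1, and the protein-coding gene Kif20a beside Cdc23. Peak signal does not say which of the overlapping genes a site acts on.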
